A study of Mus musculus with 6 samples.

Results

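Transcripts of 9 CXC chemokines (Cxcl1, Cxcl2, Cxcl3, Cxcl5, Cxcl9, Cxcl10, Cxcl13, Cxcl14 and Cxcl16) were compared between mouse macrophages given β-elemene and macrophages given phosphate-buffered saline (PBS). The genes were taken by name, 9 of the 21878 genes in the count table, and 8 of them had enough counts to be tested. All macrophages were grown from bone marrow of wild-type C57BL/6 mice with macrophage colony-stimulating factor. For 48 h a porous membrane separated them from LLC cells, which are a lung carcinoma line of the mouse. After the medium had been exchanged, β-elemene, a sesquiterpene found in plants, was added at 100 µg/mL, or PBS in the same volume, for 24 h. There were 3 RNA-seq libraries per group, assigned by sample title; the library names carry M1 for β-elemene and M2 for PBS, letters that no label explains. No group without LLC cells and no dose series is part of this comparison, so each value holds for macrophages after exposure to LLC cells at 1 dose and 1 time. No label gives each library its own culture or animal, so p-values here speak only of the spread among these 6 libraries, and that spread may be technical.

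CXC chemokines are small secreted proteins that guide leukocytes along a gradient by binding receptors with a matching set of ligands. Cxcl1, Cxcl2, Cxcl3 and Cxcl5 act on Cxcr2 and draw neutrophils, whereas Cxcl9 and Cxcl10 act on Cxcr3 on activated T cells and natural killer cells, and Cxcl16 acts on Cxcr6 on T cells. In macrophages, NF-kB is known to drive the neutrophil-attracting group, and interferons are known to drive Cxcl9 and Cxcl10.

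The stretch before the transcription start of the 5 genes with the largest rises is shown because these genes fall into the neutrophil-attracting and the T-cell-attracting group, and because their letters can be read beside the values that follow. The sequences are from RefSeq, build GRCm38.p6, and give the 250 bases before each start, 5′ to 3′ on the strand of the gene. Capitals mark matches to motifs searched on both strands: the kappaB site GGGANNNNCC of NF-kB, the interferon-stimulated response element (ISRE) GAAANNGAAA, the GAS element TTCNNNGAA of interferon gamma signalling, the AP-1 site TGANTCA and the TATA box TATAAA.
Cxcl1 (chr5:90890995-90891244, plus strand): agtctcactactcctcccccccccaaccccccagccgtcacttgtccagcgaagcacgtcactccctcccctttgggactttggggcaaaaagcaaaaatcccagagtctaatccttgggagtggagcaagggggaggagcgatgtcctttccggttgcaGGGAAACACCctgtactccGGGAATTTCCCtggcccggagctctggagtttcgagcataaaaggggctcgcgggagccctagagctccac
Cxcl2 (chr5:90903649-90903898, plus strand): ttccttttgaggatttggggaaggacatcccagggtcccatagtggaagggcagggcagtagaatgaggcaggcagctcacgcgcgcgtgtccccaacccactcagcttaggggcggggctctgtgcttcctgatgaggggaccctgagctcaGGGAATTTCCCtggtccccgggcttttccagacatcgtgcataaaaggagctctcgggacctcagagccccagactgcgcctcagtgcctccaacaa
Cxcl3 (chr5:90785851-90786100, plus strand): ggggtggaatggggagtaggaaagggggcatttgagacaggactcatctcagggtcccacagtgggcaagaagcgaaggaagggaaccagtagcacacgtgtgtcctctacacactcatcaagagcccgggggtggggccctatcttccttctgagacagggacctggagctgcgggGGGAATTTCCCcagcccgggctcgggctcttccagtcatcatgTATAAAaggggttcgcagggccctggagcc
Cxcl9 (chr5:92328080-92328329, minus strand): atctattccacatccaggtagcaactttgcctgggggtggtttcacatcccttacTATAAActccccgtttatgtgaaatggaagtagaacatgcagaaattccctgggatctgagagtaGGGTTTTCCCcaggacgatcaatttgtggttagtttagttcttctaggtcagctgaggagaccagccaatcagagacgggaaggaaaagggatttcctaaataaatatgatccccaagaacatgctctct
Cxcl10 (chr5:92348890-92349139, minus strand): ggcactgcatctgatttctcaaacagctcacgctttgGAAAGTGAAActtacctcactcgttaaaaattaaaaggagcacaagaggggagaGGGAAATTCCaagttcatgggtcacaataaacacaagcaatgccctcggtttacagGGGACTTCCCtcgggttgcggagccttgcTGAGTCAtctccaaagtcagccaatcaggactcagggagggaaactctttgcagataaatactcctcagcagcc

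Promoter windows, including 50 bases after the start, were found in that source for 7 of the 9 genes, without Cxcl5 and Cxcl16. Cxcl1, Cxcl2 and Cxcl3 each held the 11-base stretch GGGAATTTCCC, in which a kappaB match on the plus strand overlaps one on the minus strand. Counting back from -1 as the last base before the start, the stretch ran -71 to -61 in Cxcl1, -97 to -87 in Cxcl2 and -73 to -63 in Cxcl3, and it occurred in 14 of 32851 mouse promoter windows (0.0426%). The exact letters of the other kappaB matches printed above were rare as well. Those of Cxcl1 were in 0.0974% of windows, those of Cxcl9 in 0.122% and those of Cxcl10 in 0.110% and 0.137%. The looser kappaB motif was in 6 of the 7 windows, all but that of Cxcl14, and in 20.7% of all windows. Among the 5 printed sequences the ISRE motif occurred in Cxcl10, at -213 to -204, and in 3.44% of all windows. Cxcl14, which is not printed, also held an ISRE match and the single GAS match (8.30% of all windows). An AP-1 match was found in Cxcl10 at -74 to -68 and in Cxcl9 at 31 to 37 past the start, outside the printed bases, against 7.81% of all windows. TATAAA was present in Cxcl3, Cxcl9 and Cxcl13 and in 13.6% of all windows. A match is a description of letters and does not show that a factor binds there.

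Total gene counts were 18916844 to 20550078 in the β-elemene libraries and 20524959 to 20729887 in the PBS libraries. Values are counts relative to scaled library size (CPM), with TMM scaling factors of 0.794 to 0.812 for β-elemene libraries and 1.24 to 1.26 for PBS libraries. A count of 0 allows up to 3 counts, equal to 0.184 to 0.195 CPM with β-elemene and 0.116 to 0.117 CPM with PBS, for counting error only. The 8 listed macrophage markers were all tested and summed to 15418 to 16048 CPM with β-elemene and 12585 to 13551 CPM with PBS, with Lyz2, a lysozyme, the most abundant. Of these, 5 were higher, with Fcgr1 at a log2 fold change of 2.86 and Lyz2 at 0.44, and 3 were lower, with Csf1r, the receptor for macrophage colony-stimulating factor, at 928 CPM with β-elemene and 2672 CPM with PBS (-1.53), C1qa at -0.77 and Itgam at -0.26. Library size alone gave 2 higher and 5 lower, against 2166 higher and 8003 lower over all 11459 genes tested. For all marker lists here, the TMM shares over all genes tested were 36.6% called higher and 40.2% called lower. Of 5 carcinoma or epithelial markers, Krt19 and Cldn4 had no count and the sum was 0 to 0.0615 CPM with β-elemene and 0 to 0.155 CPM with PBS. The 10 neutrophil markers summed to 537 to 643 CPM with β-elemene and 541 to 586 CPM with PBS, nearly all of it Csf3r, a receptor that macrophages also express. The neutrophil surface gene Ly6g had 4 counts in all with β-elemene and 0 with PBS, and Retnlg had none. Of the 7 neutrophil markers tested, the low-level genes S100a8 (1.97), S100a9 (0.53), Camp (4.29) and Ngp were called higher, Mpo was called lower (-3.35), and 2 were not called. S100a9 was not called with library size alone, with upper-quartile scaling, or without β-elemene library 3, PBS library 1 or PBS library 3. Summed over the 3 libraries, S100a8 had 758 counts with β-elemene against 311 with PBS. Camp had 54 with β-elemene against 4 with PBS. Camp had enough counts for a test through the β-elemene group alone and Mpo through the PBS group alone. That favours a difference, so these 2 calls carry no weight of their own. The 6 T cell markers summed to 37.1 to 46.7 CPM with β-elemene and 12.5 to 12.9 CPM with PBS, mostly the kinase gene Lck in the β-elemene group, while the T cell receptor genes Cd3d, Cd3e and Cd3g had 2, 0 and 0 counts with β-elemene and 1 each with PBS. The 4 endothelial markers summed to 116 to 182 CPM with β-elemene and 21.0 to 23.2 CPM with PBS, mostly Kdr in the β-elemene group and Pecam1 in the PBS group. Kdr was higher, at 143 CPM with β-elemene and 3.85 CPM with PBS, as was Cdh5, whereas Pecam1 was lower, at 2.28 CPM with β-elemene and 18.3 CPM with PBS. Cdh5 reached a test only through the β-elemene group. B cell, dendritic cell and stromal lists each summed to under their PBS range with β-elemene, with 0.677 to 1.53, 2.58 to 2.89 and 1.56 to 3.38 CPM with β-elemene and 1.79 to 4.42, 3.39 to 4.43 and 12.7 to 16.4 CPM with PBS. The dendritic cell list went both ways, with Clec9a called higher (75 summed counts with β-elemene, 17 with PBS) and Zbtb46 called lower (33 with β-elemene, 252 with PBS). Clec9a would not have been tested on its PBS counts alone, nor Zbtb46 on its β-elemene counts alone, so these calls carry no weight either. In such bulk libraries fewer cells of a type and less RNA per cell cannot be told apart. The part of the markers that moved in the results below was not tested.

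Neutrophil-attracting and T-cell-attracting ligands both rose: Cxcl1, Cxcl2, Cxcl3, Cxcl9 and Cxcl10 were far more abundant with β-elemene. Cxcl16 was higher by a small margin that depended on the scaling, Cxcl14 was lower, and Cxcl5 and Cxcl13 were at the edge of detection. Of the 8 tested genes 6 were called higher and 2 lower (edgeR quasi-likelihood test, Benjamini-Hochberg adjusted p below 0.05 over all 11459 genes tested). One of the lower calls, that of Cxcl5, was lost in 6 of 13 alternatives, and that gene was tested only through its PBS counts. Cxcl10, for its part, would not have been tested on its PBS counts alone. Across all genes tested 76.7% were called, 36.6% higher and 40.2% lower, so a call alone is the usual outcome in this comparison and the size of the change says more. The median log2 fold change was 4.79 over the 8 genes and -0.06 over all genes tested. For 7 of the 8 genes the libraries of the groups did not overlap, as was so for 79.9% of all genes tested. The plot of CXC chemokine levels by library shows all 9 genes.

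**Figure D1:**
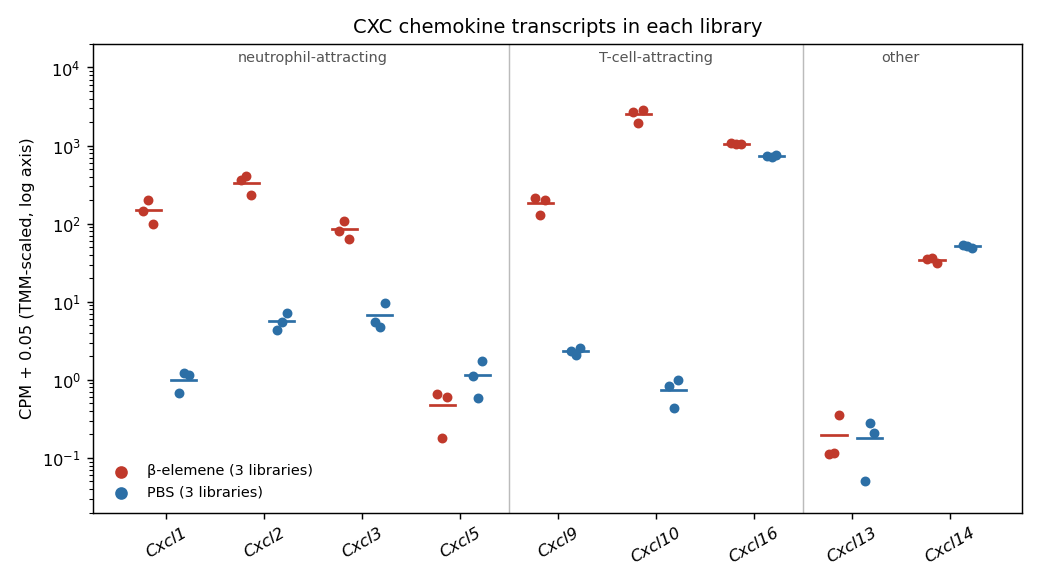
Level of each CXC chemokine in each library, as TMM-scaled CPM plus 0.05 on a log axis, β-elemene in red and PBS in blue, with points for the 3 libraries and a line for their mean. Cxcl10 lies between 1966 and 2875 CPM in the β-elemene libraries and under 1 CPM in the PBS libraries, whereas the points of Cxcl5 and Cxcl13 overlap between groups.

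Among the neutrophil-attracting ligands, Cxcl1 (chromosome 5, 90891245 to 90893121, GRCm38.p6), the mouse chemokine long known as KC, stood at 146, 201 and 97.6 CPM in β-elemene libraries 1, 2 and 3, and at 0.620, 1.17 and 1.09 CPM in PBS libraries 1, 2 and 3. Every β-elemene library was far above every PBS library, and the β-elemene libraries themselves spread widely, with library 2 highest and library 3 lowest. The PBS values rest on 16, 30 and 28 counts, against 2374, 3086 and 1591 counts with β-elemene. The means were 148 ± 51.7 CPM with β-elemene and 0.959 ± 0.296 CPM with PBS (SD, n = 3 each). The log2 fold change, 7.26 (SE 0.44, edgeR adjusted p = 1.71e-05), ranked 57 of 11459 from the top.

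Cxcl2 (90903899 to 90905938), known as MIP-2 and the next gene along the chromosome, stood at 358, 411 and 236 CPM in β-elemene libraries 1 to 3 and at 4.26, 5.48 and 7.10 CPM in PBS libraries 1 to 3. The groups were again well apart, with the same order of libraries within the β-elemene group as for Cxcl1. Cxcl2 changed by a log2 fold of 5.90 (SE 0.31, edgeR adjusted p = 8.83e-06), rank 119 of 11459. Cxcl3 (90786101 to 90788093), a close relative of Cxcl2, stood at 81.4, 109 and 63.2 CPM with β-elemene and at 5.46, 4.74 and 9.67 CPM with PBS. The groups did not overlap, and PBS library 3, with 248 counts, was above the other two PBS libraries, with 141 and 122. Cxcl3 changed by a log2 fold of 3.67 (SE 0.34, edgeR adjusted p = 1.28e-04). Cxcl2 and Cxcl3 share 61 stretches of 50 bases in their transcripts, 5.75% of those of Cxcl2 and 6.31% of those of Cxcl3, so a small share of reads could have been assigned to either gene. Cxcl1 shared no such stretch with any other transcript.

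Cxcl5 (90759298 to 90761625), which encodes the mouse ligand LIX, did not follow them. It had 10, 2 and 9 counts in β-elemene libraries 1 to 3 and 28, 14 and 43 counts in PBS libraries 1 to 3, or 0.615, 0.130 and 0.552 CPM against 1.08, 0.544 and 1.68 CPM. The groups overlapped, since β-elemene libraries 1 and 3 were above PBS library 2. The log2 fold change was -1.32 (SE 0.53, edgeR adjusted p = 0.0391), and the gene passed the filter on low counts through the PBS group alone. The call was lost with limma-voom (adjusted p = 0.0633) and when any 1 of 5 libraries was left out. The log2 fold change was then -1.63 without β-elemene library 1, -0.88 without β-elemene library 2, -1.51 without β-elemene library 3, -1.33 without PBS library 1 and -0.89 without PBS library 3, with adjusted p from 0.0525 to 0.161.

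Among the T-cell-attracting ligands, Cxcl10 (chromosome 5, 92346638 to 92348889), an interferon-inducible ligand of Cxcr3, changed most. It had 43279, 30203 and 46887 counts in β-elemene libraries 1 to 3 and 20, 10 and 24 counts in PBS libraries 1 to 3, which is 2662, 1966 and 2875 CPM against 0.775, 0.388 and 0.936 CPM. All β-elemene libraries were far above any PBS library, and library 2 was the lowest of them. The means were 2501 ± 475 CPM with β-elemene and 0.700 ± 0.281 CPM with PBS (SD, n = 3 each). The log2 fold change, 11.79 (SE 0.27, edgeR adjusted p = 2.71e-09), was rank 2 of the 11459 genes tested. The PBS counts alone would not have passed the filter on low counts, because PBS library 2, at 10 counts, fell just under it. The size of the change therefore says more than the call. Il6, the acute-phase cytokine, held rank 1.

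Cxcl9 (92321331 to 92328079), the neighbouring Cxcr3 ligand induced chiefly by interferon gamma, stood at 216, 128 and 201 CPM in β-elemene libraries 1 to 3 and at 2.29, 2.06 and 2.50 CPM in PBS libraries 1 to 3. The groups were far apart and library 2 was again the lowest of the β-elemene group. Cxcl9 changed by a log2 fold of 6.31 (SE 0.29, edgeR adjusted p = 3.85e-06), rank 98. The count ratio of Cxcl10 to Cxcl9, which no scaling affects, was 12.3, 15.3 and 14.3 in β-elemene libraries 1 to 3 and 0.339, 0.189 and 0.375 in PBS libraries 1 to 3. Cxcl10 had more counts than Cxcl9 in every β-elemene library and fewer in every PBS library.

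Cxcl16 (chromosome 11, 70454389 to 70459984), a membrane-bound ligand that is shed from the cell surface and also takes up oxidised lipoprotein, behaved differently. It was abundant in both groups, at 1079, 1052 and 1033 CPM in β-elemene libraries 1 to 3 and 736, 716 and 761 CPM in PBS libraries 1 to 3. The highest library exceeded the lowest 1.04-fold with β-elemene and 1.06-fold with PBS, and the groups did not overlap. The log2 fold change was 0.52 (SE 0.06, edgeR adjusted p = 2.90e-06) on the TMM scale. With library size alone the same counts gave 862, 854 and 819.7 CPM with β-elemene and 925, 889.6 and 943 CPM with PBS, so the direction turned round, with a log2 fold change of -0.12 and an adjusted p of 0.0661. The same change of scaling moved the median of all genes by -0.64, so Cxcl16 was above that median under either scaling and its absolute direction is not settled by these counts.

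Cxcl14 (chromosome 13, 56288643 to 56296811), a chemokine made without stimulation in many tissues, stood at 35.5, 36.1 and 31.7 CPM in β-elemene libraries 1 to 3 and at 52.6, 52.0 and 49.2 CPM in PBS libraries 1 to 3. The groups did not overlap and each was tight. Cxcl14 changed by a log2 fold of -0.57 (SE 0.07, edgeR adjusted p = 4.70e-06), and it was negative under every scaling run (-1.21 to -0.50 over the 14 alternatives). Cxcl13 (chromosome 5, 95956939 to 95961068), the ligand of Cxcr5 that draws B cells, had 1, 1 and 5 counts in β-elemene libraries 1 to 3 and 0, 6 and 4 counts in PBS libraries 1 to 3. It did not pass the filter. The ratio of its summed counts, 7 with β-elemene and 10 with PBS, was 1.13 after scaling, with an exact 95% interval of 0.364 to 3.28 for counting error, so no difference was detectable at this depth.

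Set against each other per length, in CPM per kilobase of transcript, the genes changed order between groups. With β-elemene the order was Cxcl10 (2286 ± 434), Cxcl16 (391 ± 8.49), Cxcl2 (302 ± 80.7), Cxcl1 (155 ± 54.3), Cxcl3 (83.3 ± 22.8), Cxcl9 (62.9 ± 16.3) and Cxcl14 (18.9 ± 1.32), with Cxcl5 and Cxcl13 under 1. Across libraries the ranges of Cxcl1 and Cxcl3 overlapped, as did those of Cxcl3 and Cxcl9. Within each β-elemene library, however, Cxcl2 was above Cxcl1 and Cxcl1 above Cxcl3. These genes stood at 323, 153 and 80.1 in library 1, 370.4, 211 and 108 in library 2, and 213, 102 and 62.2 in library 3. Cxcl9 was below Cxcl3 in libraries 1 and 2 and above it in library 3. With PBS the order was Cxcl16 (273 ± 8.20), Cxcl14 (28.1 ± 0.998), Cxcl3 (6.52 ± 2.62), Cxcl2 (5.06 ± 1.28), Cxcl1 (1.01 ± 0.311), Cxcl9 (0.789 ± 0.0755), Cxcl5 (0.699 ± 0.360) and Cxcl10 (0.640 ± 0.257), with Cxcl13 last (SD, n = 3). There Cxcl3 and Cxcl2 overlapped, and so did Cxcl1, Cxcl9, Cxcl5 and Cxcl10. Cxcl10 was thus order 1 of 9 with β-elemene and order 8 of 9 with PBS.

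Counted per kilobase, Cxcl10 made up 69.8%, 61.1% and 75.6% of the transcripts of the 9 genes in β-elemene libraries 1 to 3 and 0.226%, 0.116% and 0.260% in PBS libraries 1 to 3. Cxcl16 made up 11.5%, 13.3% and 11.0% with β-elemene and 87.0%, 86.7% and 85.7% with PBS. Cxcl14 held 0.559%, 0.673% and 0.499% with β-elemene and 9.19%, 9.29% and 8.19% with PBS. The PBS libraries therefore carried mainly Cxcl16 with some Cxcl14, and the β-elemene libraries mainly Cxcl10. The 9 genes together took 0.366%, 0.317% and 0.360% of all counts with β-elemene and 0.101%, 0.0972% and 0.103% with PBS.

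**Figure D2:**
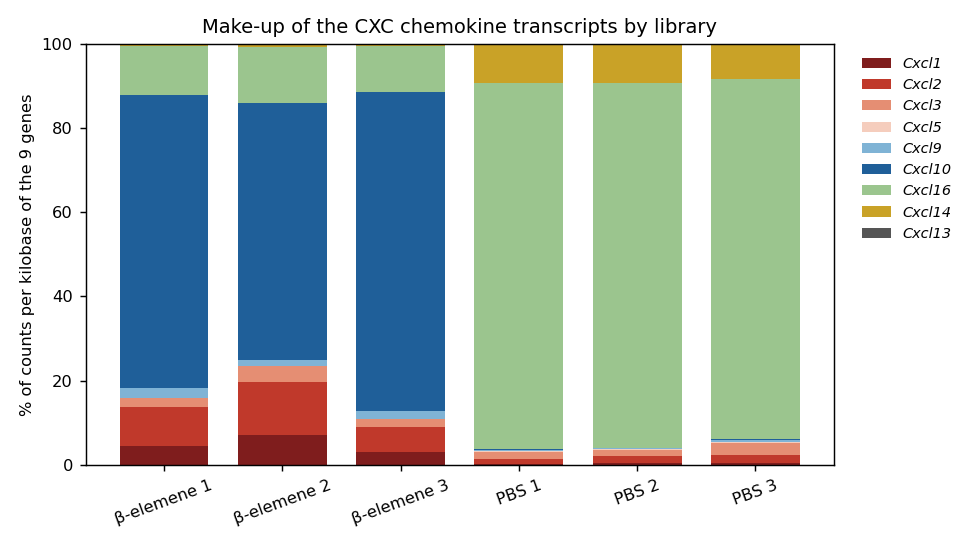
Share of each gene in the counts per kilobase of the 9 CXC chemokines, as percent, in the 3 β-elemene and the 3 PBS libraries. Cxcl16 fills over 85% of each PBS bar and 11.0% to 13.3% of each β-elemene bar, where Cxcl10 fills 61.1% to 75.6%.

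The neutrophil-attracting and the T-cell-attracting ligands were compared directly by the share of Cxcl9 and Cxcl10 in the counts of Cxcl1, Cxcl2, Cxcl3, Cxcl5, Cxcl9 and Cxcl10, which needs no scaling. The share was 83.1%, 74.4% and 88.6% in β-elemene libraries 1 to 3 and 21.1%, 17.0% and 14.9% in PBS libraries 1 to 3. The β-elemene libraries lay far above the PBS libraries. The widest Wilson 95% intervals were 74.0% to 74.8% for β-elemene library 2 and 17.3% to 25.5% for PBS library 1. They cover counting error within a library only, and the β-elemene libraries differed by more than that. The means were 82.0% ± 7.14 with β-elemene and 17.7% ± 3.15 with PBS (SD, n = 3 each), and no test was run on this share because the genes were chosen with results known. Per kilobase the means were 80.8% ± 7.52 with β-elemene and 9.94% ± 2.16 with PBS. Both sides of the share were larger with β-elemene: the neutrophil-attracting counts were 9534, 11075 and 6485 with β-elemene and 295, 307 and 501 with PBS, and the Cxcl9 plus Cxcl10 counts were 46794, 32171 and 50158 with β-elemene and 79, 63 and 88 with PBS.

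The share depends on which gene stands for each side. When Cxcl16 is added to the T-cell-attracting side, the means turn round to 86.5% ± 4.93 with β-elemene and 98.1% ± 0.531 with PBS. Without Cxcl10, the pair of Cxcl9 and Cxcl2 gave count ratios of 0.603, 0.312 and 0.849 with β-elemene and 0.536, 0.376 and 0.352 with PBS, and these groups overlap. The ratio of Cxcl9 to Cxcl1 was 1.48, 0.638 and 2.06 with β-elemene and 3.69, 1.77 and 2.29 with PBS. Of the ratios to Cxcl2, that of Cxcl10 was higher in every β-elemene library than in any PBS library and that of Cxcl9 was not.

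Within the neutrophil-attracting group the balance moved as well. The count ratio of Cxcl2 to Cxcl3 was 4.40, 3.76 and 3.74 in β-elemene libraries 1 to 3 and 0.780, 1.16 and 0.734 in PBS libraries 1 to 3. The ratio of Cxcl2 to Cxcl1 was 2.45, 2.04 and 2.42 with β-elemene and 6.88, 4.70 and 6.50 with PBS. Cxcl2 was thus higher relative to Cxcl3 and lower relative to Cxcl1 with β-elemene, and neither ratio overlapped between groups.

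The 5 ligands with the largest rises varied more between β-elemene libraries than most genes did. The highest library exceeded the lowest 2.06-fold for Cxcl1, 1.74-fold for Cxcl2, 1.73-fold for Cxcl3, 1.69-fold for Cxcl9 and 1.46-fold for Cxcl10, while genes averaging 10 CPM or more (7489 genes) had a median of 1.13 and a 95th percentile of 1.39. Library 2 was the highest for Cxcl1, Cxcl2 and Cxcl3 and the lowest for Cxcl9 and Cxcl10. Within these 3 libraries the spread thus ran in opposite directions for the ligand groups. The PBS libraries did not show this. There library 3 was the highest for Cxcl2, Cxcl3, Cxcl9 and Cxcl10, and library 2 for Cxcl1. The count ratio of Cxcl10 to Cxcl2 was 7.43, 4.79 and 12.2 in β-elemene libraries 1 to 3, against 0.182, 0.0709 and 0.132 in PBS libraries 1 to 3. Without β-elemene library 2 the log2 fold changes were 7.01 for Cxcl1, 5.75 for Cxcl2, 3.47 for Cxcl3, 6.54 for Cxcl9 and 11.96 for Cxcl10, and all 5 remained called. Cxcl16 and Cxcl14 were steady within the β-elemene group, at 1.04-fold and 1.14-fold.

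**Figure D3:**
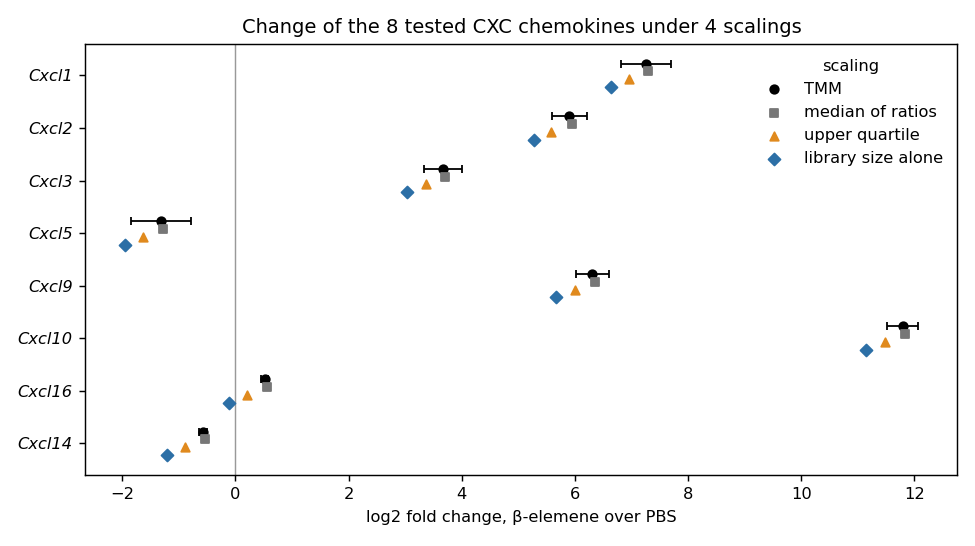
log2 fold change, β-elemene over PBS, of the 8 tested CXC chemokines under 4 scalings, with error bars for the SE of the TMM values. Cxcl16 moves across 0 with library size alone (-0.12, against 0.52 with TMM), and the other 7 genes keep their side.

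Likeness of profile was measured as the root-mean-square difference of log2 CPM plus 0.5 over 6 libraries with each gene centred on its mean. Cxcl10 was most like Il6 (0.54) and Cxcl9 most like Inhba (0.11), which encodes a subunit of activin. Cxcl1 was most like Il12a (0.31), a subunit of interleukin-12, Cxcl2 most like Rnd1 (0.28), a small GTPase, and Cxcl3 most like H2-M2 (0.25), a class I histocompatibility gene. Cxcl5 was most like Timp1 (0.18), Cxcl16 most like Rad9a (0.02) and Cxcl14 most like Mbd3 (0.02). No member had another member as its nearest gene. The added 0.5 CPM shrinks the change of genes scarce in a group, so a near profile need not mean an equal fold. On the log2 scale Il6 changed by 14.13 and Cxcl10 by 11.79, and Timp1 by -0.90 and Cxcl5 by -1.32.

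Along chromosome 5 the neutrophil-attracting genes sit in a block with platelet chemokine genes, and the direction of change differed inside it. In order, Cxcl5 stood at -1.32 with the call described above, Ppbp, the platelet basic protein precursor, was not called (-0.33, SE 0.38, edgeR adjusted p = 0.445), and Pf4, platelet factor 4, was lower (-1.68, SE 0.15, edgeR adjusted p = 1.95e-05). Next came Cxcl3 (3.67), then Cxcl15 with no count, then Cxcl1 (7.26), Cxcl2 (5.90) and Mthfd2l, a folate enzyme gene, at 1.23. Pf4 stood at 27.1, 21.5 and 31.0 CPM in β-elemene libraries 1 to 3 and at 88.0, 71.4 and 95.5 CPM in PBS libraries 1 to 3, without overlap. Rises and falls therefore stood within one run of related genes. The plot of the chromosome 5 blocks shows this order.

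**Figure D4:**
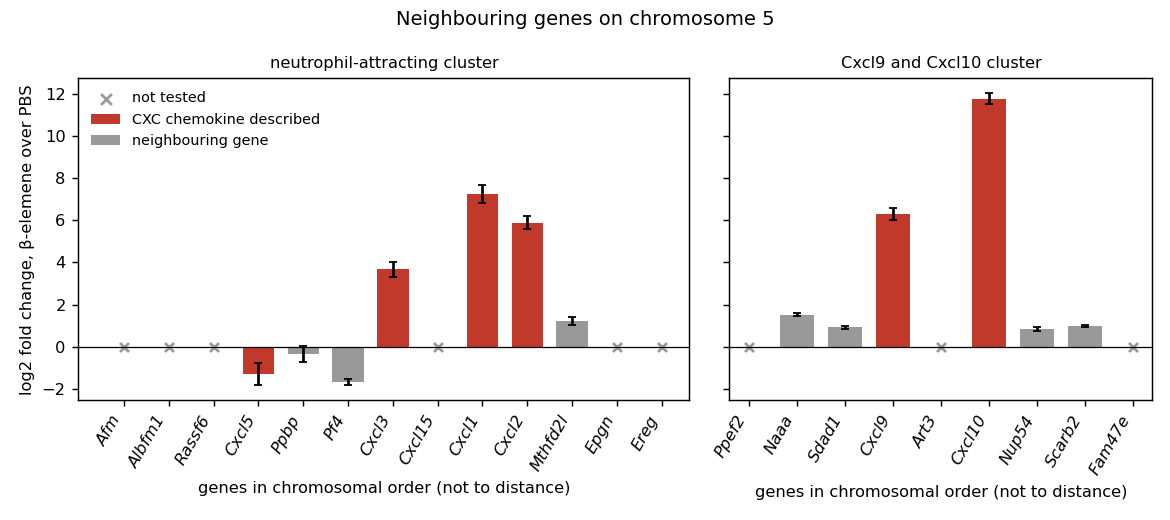
log2 fold change, β-elemene over PBS, of the genes in chromosome order around the neutrophil-attracting block and around Cxcl9 and Cxcl10, with error bars for the SE and a cross for each untested gene. Cxcl3, Cxcl1 and Cxcl2 are at 3.67 to 7.26 and Cxcl9 and Cxcl10 at 6.31 and 11.79, while the tested genes beside them are between -1.68 and 1.51.

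Around Cxcl9 and Cxcl10 the 4 tested neighbours were also called higher, with log2 fold changes of 0.84 to 1.51. Naaa, an amidase gene, was at 1.51, Sdad1 at 0.91, Nup54, a nuclear pore gene, at 0.84 and Scarb2, a lysosomal membrane receptor, at 0.98 on the log2 scale. Art3 (92331799 to 92414628), which lies across Cxcl10 on the opposite strand, had 11, 10 and 8 counts in β-elemene libraries 1 to 3 and 0, 2 and 2 counts in PBS libraries 1 to 3, and it was not tested. Its scaled ratio of summed counts was 11.7, with an exact 95% interval of 4.10 to 45.7. Ppef2, a phosphatase gene on the other side of Cxcl9, was not tested either, with 17, 4 and 11 counts in β-elemene libraries 1 to 3 and 0, 0 and 1 counts in PBS libraries 1 to 3, a ratio of 51.5 (8.61 to 2099). The start of Zmynd15 (70459433) lies inside Cxcl16, on the opposite strand. Zmynd15 was called higher with TMM (0.65) and was not called with library size alone (0.01, edgeR adjusted p = 0.924). Whether counting used strand is not given in the sources used here, so reads in these overlaps cannot be assigned with certainty. Over the 33 flanking genes of all members, 16 were tested, 10 rose and 3 fell, with a median log2 fold change of 0.62 against -0.06 for all genes. Scaled by library size, 7 were higher and 7 lower, against 2166 higher and 8003 lower over all 11459 genes tested. Among all genes tested with TMM, 36.6% were higher and 40.2% lower. H2afy, a histone variant gene near Cxcl14, was at 1.18 and Arrb2, an arrestin gene near Cxcl16, at -1.10.

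Of the 5 other CXC ligands only Pf4 was called, and Ppbp was called lower with library size alone (-0.97, edgeR adjusted p = 0.0365). Cxcl12, a ligand of Cxcr4, had summed counts of 6 with β-elemene against 24 with PBS and was not tested. Cxcl15 and Cxcl17 had no count.

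Receptor genes went both ways, with Cxcr4 and Cxcr2 lower and Cxcr3 higher. Cxcr4, the receptor of Cxcl12, stood at 3.08, 4.10 and 3.19 CPM in β-elemene libraries 1 to 3 and at 150.4, 180.2 and 156 CPM in PBS libraries 1 to 3. It was lower in every β-elemene library, by a log2 fold change (-5.55; SE 0.11, edgeR adjusted p = 1.15e-13). Cxcr2, the receptor of the neutrophil-attracting ligands, had summed counts of 2 with β-elemene and 108 with PBS, a scaled ratio of 0.0298 with an exact 95% interval of 0.00357 to 0.110. Cxcr2 passed the filter on low counts through the PBS group alone, and passing in this way favours a difference, so its call carries no weight of its own. Cxcr3, the receptor of Cxcl9 and Cxcl10, was scarce and higher with β-elemene, at 1.17, 0.846 and 1.84 CPM in β-elemene libraries 1 to 3 and 0.426, 0.544 and 0.234 CPM in PBS libraries 1 to 3 (log2 fold change 1.67, SE 0.42, edgeR adjusted p = 0.00252), beside at most 2 counts per group for each of Cd3d, Cd3e and Cd3g. PBS library 3 held 6 counts of Cxcr3, under the filter, so Cxcr3 too would not have been tested on its PBS counts alone. Cxcr6, the receptor of Cxcl16, had summed counts of 25 with β-elemene and 9 with PBS, a scaled ratio of 4.47 (exact 95% interval 2.02 to 10.9). Cxcr5, the receptor of Cxcl13, had 16 with β-elemene and 9 with PBS, a ratio of 2.86 (1.19 to 7.35), and the scavenging receptors Ackr3 and Ackr1 had 2 and 0 with β-elemene and 6 and 4 with PBS. These 4 were not tested, and Cxcr1 had no count. Of the 3 receptors tested, 1 was called higher and 2 lower, Cxcr2 among them, under each scaling. Over all genes tested 36.6% were higher and 40.2% lower with TMM, so the split of so few genes is not read as a result.

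Genes whose proteins cut or shed chemokines changed in both directions. Of 7 tested, 5 rose, 1 fell and 1 was not called, while scaling by library size gave 4 higher and 2 lower. Over all 11459 genes tested, scaling by library size gave 2166 higher and 8003 lower. With TMM 36.6% of all genes tested rose and 40.2% fell, so the split of these few genes is not read as a result. Adam10 and Adam17 encode the sheddases that release Cxcl16 and many other membrane proteins. Adam10 was at 106 ± 4.29 CPM with β-elemene and 287 ± 11.0 CPM with PBS (log2 fold change -1.44), whereas Adam17 was at 441 ± 39.9 CPM with β-elemene and 181 ± 1.90 CPM with PBS (log2 fold change 1.28; SD, n = 3 each). Cpd, a carboxypeptidase, was higher by 1.25 and Mmp9, a matrix protease that trims neutrophil-attracting ligands, by 1.16 on the log2 scale.

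The 3′ untranslated regions of Cxcl1 and Cxcl2 are known to carry AU-rich elements, and these were counted as the heptamer TATTTAT in GENCODE M21 transcripts, a choice made after the values were seen. Cxcl1 held 6 copies in 595 bases and Cxcl2 held 7 in 737 bases, and of 19325 genes 0.321% held at least 6 and 0.155% at least 7. Cxcl3 held 2 copies and Cxcl5 held 1, and Cxcl9, Cxcl10, Cxcl13, Cxcl14 and Cxcl16 held none. Of 7 genes for proteins that shorten or lengthen the life of such transcripts, 4 rose and 3 fell, with a median log2 fold change of 0.44. All genes tested had 36.6% higher, 40.2% lower and a median of -0.06, so this split is not read as a result. Scaled by library size, 3 were higher and 4 lower, with a median of -0.20. All 11459 genes tested then had 2166 higher, 8003 lower and a median of -0.70. Traf3ip2, an adaptor in interleukin-17 signalling that stabilises chemokine transcripts, was higher (1.75), as was Zc3h12a, an endonuclease (1.46). Zfp36, tristetraprolin, was higher at 1.29 and is named outside the naming rule, after its value was seen. Its relatives Zfp36l1 and Zfp36l2 were lower, at 4.65 ± 1.05 CPM with β-elemene and 211 ± 15.1 CPM with PBS (log2 fold change -5.49) for Zfp36l1 and at -1.68 for Zfp36l2.

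Genes of the NF-kB pathway were higher almost throughout. Of 16 tested, 15 rose, none fell and 1 was not called, with a median log2 fold change of 1.87. Beside them, 36.6% of all genes tested rose and 40.2% fell, with a median of -0.06. Library size alone gave 13 higher and 3 lower, and the upper quartile 14 higher and 1 lower. Over all 11459 genes library size alone gave 2166 higher and 8003 lower, and the upper quartile 2947 higher and 6528 lower. Nfkbiz, an inducible nuclear cofactor of NF-kB, was at 341 ± 19.0 CPM with β-elemene and 2.36 ± 0.183 CPM with PBS (log2 fold change 7.17, SE 0.09, edgeR adjusted p = 2.92e-15). Tnfaip3 (3.72) and Nfkbia (3.70), both inhibitors induced by the pathway, and the subunit gene Nfkb2 (3.10) followed.

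On the interferon side 17 of 19 tested genes rose and 2 fell, with a median log2 fold change of 1.65, against 15 higher and 2 lower when scaled by library size. For this list and the cytokine genes below, the background over all genes tested was 36.6% higher and 40.2% lower, with a median of -0.06. Scaled by library size, that background was 2166 higher and 8003 lower of 11459 genes, with a median of -0.70. Ifng, interferon gamma, had summed counts of 161 with β-elemene and 1 with PBS, a scaled ratio of 259 with an exact 95% interval of 45.9 to 10307. Usp18, an inhibitor of interferon signalling, was higher by 5.12 and Irf7, an interferon regulatory factor, by 3.93 on the log2 scale. The receptor gene Ifngr1 (-0.95) and the transcription factor gene Irf3 (-0.27) were lower. Of 6 tested cytokine genes that feed these pathways, 5 rose and 1 fell, against 4 higher and 1 lower when scaled by library size. Il6 had summed counts of 27375 with β-elemene and 2 with PBS, a scaled ratio of 22049 with an exact 95% interval of 6103 to 182079. Il6 and Ifng passed the filter through the β-elemene group alone. Il1a (8.54), Il1b (8.44) and Tnf (7.06) were higher, Osm was lower (-1.10), and Il17a had no count. These lists were chosen with earlier results of these data known, so their counts are not independent of one another or of the chemokines.

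**Figure D5:**
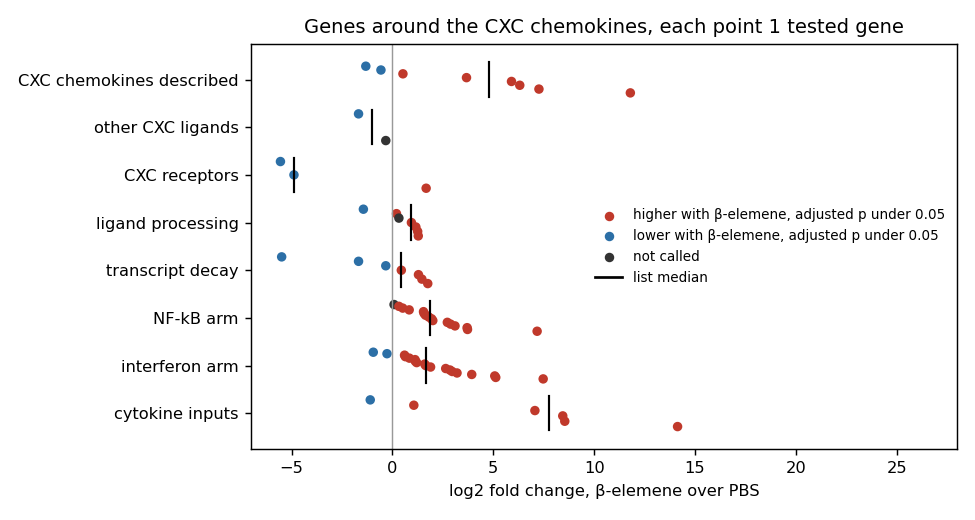
log2 fold change, β-elemene over PBS, of each tested gene in 8 lists, red for higher, blue for lower and dark for not called at an adjusted p of 0.05, with a bar at the median of each list. The median is 4.79 for the CXC chemokines, 1.87 for the NF-kB list and 1.65 for the interferon list, and the receptors lie on both sides of 0.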

How the data were processed

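Stranded mRNA libraries were prepared from total RNA, per the labels' protocols. The submitters' processing notes name HISAT2 2.2.1.0, GRCm38.p6 and mm10. How reads were assigned to genes, whether strand was used and what was filtered is not given in the sources used here. The deposited values are unnormalized counts, whole numbers for each gene and library. From these, 27 symbols that a spreadsheet had turned into dates were restored by gene identifier. Genes with few counts were removed (filterByExpr, minimum count 10 and minimum total 15), and the rest were scaled with TMM and tested in R 4.3.3 by the quasi-likelihood test of edgeR 4.0.16 (robust glmQLFit, then glmQLFTest) on group alone, leaving 4 residual degrees of freedom. Benjamini-Hochberg adjustment ran over all 11459 genes, and calls were made at 0.05. Each SE came from the F statistic. For several genes that were untested or had few counts in a group, the text gives the ratio of summed counts after scaling, with an exact 95% interval for counting error.

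Levels between genes are per kilobase of GENCODE M21 transcripts. Coordinates are those of GRCm38.p6. Promoters are from RefSeq, 250 bases before to 50 after each start. Replicates always differed by more than counting noise (chi-square per degree of freedom 3.70 to 13.2). The members and all lists were chosen with earlier results of these data known. Named genes were every member, every other CXC ligand and receptor with a count, up to 4 called genes per other list by size of change with a mean of at least 1 CPM and up to 2 of the opposite sign, the most abundant marker of a list, and the gene nearest in profile to each tested member. Genes beside Cxcl9, Cxcl10 and Cxcl16 are named for their position. A gene of the interferon list that the rule would name is not reported here. Other scalings (median of ratios, library size alone, upper quartile), other filters (none, or at least 1 CPM in 3 libraries), other tools (limma-voom from limma 3.58.1, DESeq2 1.42.0), a replicate block and omission of each library in turn were run as alternatives. The code was tested on simulated data. Those data held few changed genes, in both directions, so the test does not bear on the choice of scaling.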

Additional observations from a re-analysis of the deposited data

How the results depend on the processing

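Cxcl1, Cxcl2, Cxcl3, Cxcl9, Cxcl10 and Cxcl14 kept their call and direction in all 14 alternatives. Cxcl16 reversed with library size alone (log2 fold change -0.12, adjusted p = 0.0661), and the number of members called higher was then 5 instead of 6. The number called lower was 1 instead of 2 with limma-voom and with 1 CPM in 3 libraries, where Cxcl5 was not tested, and 1 to 2 when leaving out each library; the remaining alternatives left it at 2. The share of Cxcl9 and Cxcl10 was 9.94% in PBS libraries per kilobase and 98.1% with Cxcl16 added, both chosen after seeing the data, and leaving out a library gave a β-elemene mean of 78.7% to 85.8% and a PBS mean of 16.0% to 19.1%. Lengths from the count table were not used because it gives none. All genes called numbered 8791, with 8368 to 10169 over the alternatives. The split was 4189 higher and 4602 lower with TMM, 2166 and 8003 with library size alone and 2947 and 6528 with the upper quartile. With the replicate block 8793 genes were called and no call among the members changed. Deviations of same-numbered libraries correlated weakly over all genes tested (-0.0236, 0.0773 and 0.0302). Whether the numbers pair the libraries cannot be told from this, since a shared effect could be small or limited to some genes. Depth limits Cxcl13 and Cxcl5, whose counts were at most 43 in any library, and the PBS level of Cxcl10, which rests on 54 counts.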
